A study of Mus musculus with 2 samples.

Results

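The miR-148 and miR-152 family is the set of mouse miRNA genes Mir148a, Mir148b and Mir152, which carry the same seed. Its members were chosen by gene symbol, and all 3 were found among the 1973 miRNA genes counted in each library. The libraries were made by small RNA sequencing of RNA shorter than 30 nucleotides from kidneys of B6NCrl mouse embryos at 14.5 days of gestation, a stage of ureteric branching and early nephron formation. There was 1 group with 2 biological replicates, each made from 2 kidneys and collected on a different day. The labels name no treatment and no engineered allele. They list both sexes, a single pup for each sample and the same donor for both samples. The number of embryos behind each library is therefore not settled, and the spread may be partly technical. There was no contrast between conditions, so the comparisons are between genes within a library and between the replicates.

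MicroRNAs are cut from hairpin precursors and guide Argonaute proteins to messenger RNAs, mostly by pairing of the seed, bases 2 to 8 of the mature strand. Genes with the same seed can therefore act on overlapping sets of messages. The miR-148 and miR-152 family is best known for repressing the maintenance DNA methyltransferase Dnmt1, and miR-148a is among the abundant miRNAs of adult liver. Mir148b and Mir152 lie in genes for zeta subunits of the COPI coat, which moves vesicles between the Golgi and the endoplasmic reticulum.

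The mature strands from the 3′ arms show what defines the family. They are given 5′ to 3′ from RefSeq on GRCm38.p6, with the seed in capitals.
miR-148a-3p: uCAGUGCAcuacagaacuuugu
miR-148b-3p: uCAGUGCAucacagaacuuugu
miR-152-3p: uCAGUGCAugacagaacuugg
Of 1738 mature mouse miRNAs in the RefSeq table, 3 had CAGUGCA at bases 2 to 8, and these were the 3 members. Counting positions from 1 at the 5′ end, miR-148a-3p differed from miR-148b-3p by C9U and U10C, an identity of 90.9% over 22 bases. It differed from miR-152-3p by C9U, U10G and U20G, an identity of 85.7% over 21 bases. Between miR-148b-3p and miR-152-3p the changes were C10G and U20G, an identity of 90.5%. The family thus varied just after the seed and near the 3′ end, and bases 11 to 19 were the same in all 3.

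The strands from the 5′ arms were less alike. They are shown because the deposited counts are per gene and do not separate the arms.
miR-148a-5p: aAAGUUCUgagacacuccgacu
miR-148b-5p: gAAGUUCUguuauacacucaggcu
miR-152-5p: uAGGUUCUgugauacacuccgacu
miR-148a-5p and miR-148b-5p shared the seed AAGUUCU, and miR-152-5p had AGGUUCU. Compared without gaps from base 1, identities of the 5′ arm strands ran from 54.5% for miR-148a-5p and miR-152-5p to 79.2% for miR-148b-5p and miR-152-5p.

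The hairpins place both arms around a short loop, with the mature strands in capitals.
Mir148a: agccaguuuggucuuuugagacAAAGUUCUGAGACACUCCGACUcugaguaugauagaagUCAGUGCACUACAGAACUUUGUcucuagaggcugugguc
Mir148b: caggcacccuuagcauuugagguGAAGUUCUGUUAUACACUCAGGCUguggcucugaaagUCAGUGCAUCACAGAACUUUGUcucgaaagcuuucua
Mir152: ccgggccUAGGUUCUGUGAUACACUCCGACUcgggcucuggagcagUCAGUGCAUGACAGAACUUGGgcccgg
The annotated hairpins were 99, 97 and 73 bases long, with 16, 13 and 15 bases between the arms. Mir152 had the highest GC content, 61.6% against 45.5% in Mir148a and 45.4% in Mir148b. Its predicted folding energy per base was also the lowest, at -0.60 kcal per mol and base against -0.41 for Mir148a and -0.32 for Mir148b. These values depend on how much flank is annotated: the 5′ arm strand began at base 8 in Mir152, base 23 in Mir148a and base 24 in Mir148b. Energies of the whole hairpins were -43.5 kcal per mol for Mir152, -41 for Mir148a and -30.9 for Mir148b. The longest stretch that Mir148a and Mir148b shared with any other annotated hairpin was 15 bases, shared with each other, and for Mir152 it was 13 bases. In 141767 GENCODE M21 transcripts, each of the 6 mature sequences was found in its own gene alone. Multimapping reads were not assigned to genes, and these searches did not cover sequence outside annotated transcripts.

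The 3 genes lie on 3 chromosomes, each on the same strand as miRNA genes of a Hox cluster. Mir148a (ENSMUSG00000065505.1) lies on mm10 chromosome 6, 51269812 to 51269910, minus strand, and overlaps no other annotated gene. The nearest protein-coding gene was Nfe2l3, 163 kb away. Mir148b (ENSMUSG00000065560.1) lies on chromosome 15, 103285125 to 103285221, plus strand. It fell in an intron of all 4 annotated transcripts of Copz1, which encodes COPI subunit zeta 1. Mir152 (ENSMUSG00000065515.1) lies on chromosome 11, 96850393 to 96850465, plus strand, 523 bases after the annotated start of Copz2, the gene for COPI subunit zeta 2. It was intronic in the 3 of 5 Copz2 transcripts that span it.

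The order of neighbouring gene families was alike at the 3 loci. Read in the direction of transcription of each miRNA gene, the miRNA genes of a Hox cluster came first, followed by a Cbx gene (chromobox proteins that bind methylated histone H3), a gene of the Nfe2 family of leucine zipper transcription factors, and then the miRNA. At Mir148a these were Mir196b of the Hoxa cluster, Cbx3 and Nfe2l3. At Mir148b they were Mir196a-2 and Mir615 of the Hoxc cluster, Cbx5 and Nfe2. At Mir152 they were Mir196a-1 and Mir10a of the Hoxb cluster, Cbx1 and Nfe2l1. An RNA-binding Hnrnpa gene lay between the Cbx and Nfe2-family genes at Mir148a (Hnrnpa2b1) and at Mir148b (Hnrnpa1). Distances differed: the closest Hox-cluster miRNA lay 960 kb from Mir148a, 270 kb from Mir148b and 533 kb from Mir152. These neighbours were chosen after the annotation had been seen, and the messages of the protein-coding ones were not measured in these libraries.

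**Figure D1:**
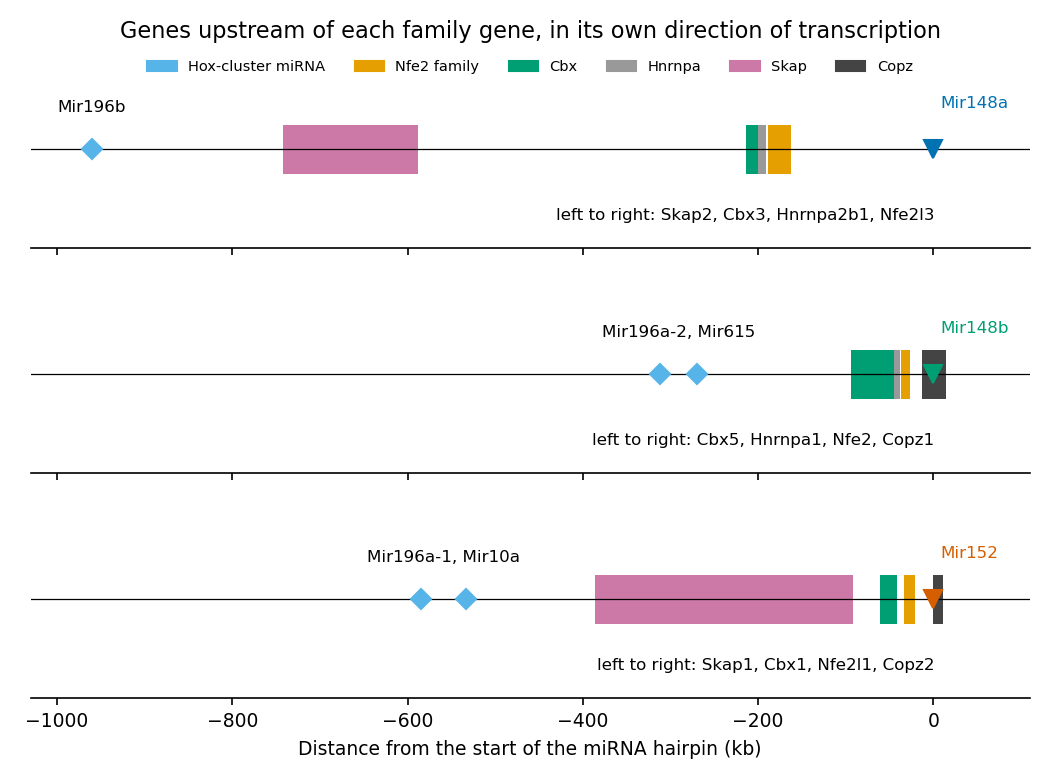
Map of the genes around Mir148a, Mir148b and Mir152, drawn to scale, with distance in kb from the start of each hairpin on the x axis and the miRNA's own direction of transcription running left to right; bars span annotated genes and diamonds mark Hox-cluster miRNA genes. In each row the Hox-cluster miRNAs, a Cbx gene and an Nfe2-family gene precede the family gene, with the closest Hox-cluster miRNA between 270 and 960 kb away.

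In embryonic kidney all 3 genes were detected, and their levels were ordered Mir148a, Mir148b, Mir152 in both libraries. Detection required at least 10 counts in both libraries, a minimum that 345 of the 1973 genes reached. Levels are given as CPM, a gene's own-strand counts per 1000000 own-strand counts of all miRNA genes, from 5202588 such counts in replicate 1 and 3683978 in replicate 2. All 3 members had 0 counts on the opposite strand, where 3 counts, the limit that a count of 0 allows, correspond to 0.577 CPM in the first library and 0.814 CPM in the second. Intervals given here are 95% exact Clopper-Pearson intervals, which cover counting error only and treat PCR reads as independent molecules. How completely each sequence was captured in library preparation was not measured. Comparisons of level between genes, here and below, are therefore of counts and not of molecules in the tissue.

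Mir148a was the most abundant member. It had 3586 counts in replicate 1, or 689 CPM (interval 667 to 712), and 3111 counts in replicate 2, or 844 CPM (815 to 875). Replicate 2 was the higher library, and the intervals did not overlap. The mean was 767 ± 110 CPM (SD, n = 2), rank 93 of all counted genes.

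Mir148b differed least between the libraries. It had 1676 counts or 322 CPM in replicate 1 (interval 307 to 338) and 1211 counts or 329 CPM in replicate 2 (310 to 348), and these intervals overlapped. Its mean of 325 ± 4.65 CPM placed it at rank 123.

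Mir152 was the least abundant member. It had 776 counts or 149 CPM in replicate 1 (interval 139 to 160) and 713 counts or 194 CPM in replicate 2 (180 to 208), again higher in replicate 2 with intervals that did not overlap. The mean was 171 ± 31.4 CPM, rank 151. No member's range over the 2 libraries overlapped that of another member: the highest Mir152 value lay below the lowest Mir148b value, and the highest Mir148b value below the lowest Mir148a value.

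**Figure D2:**
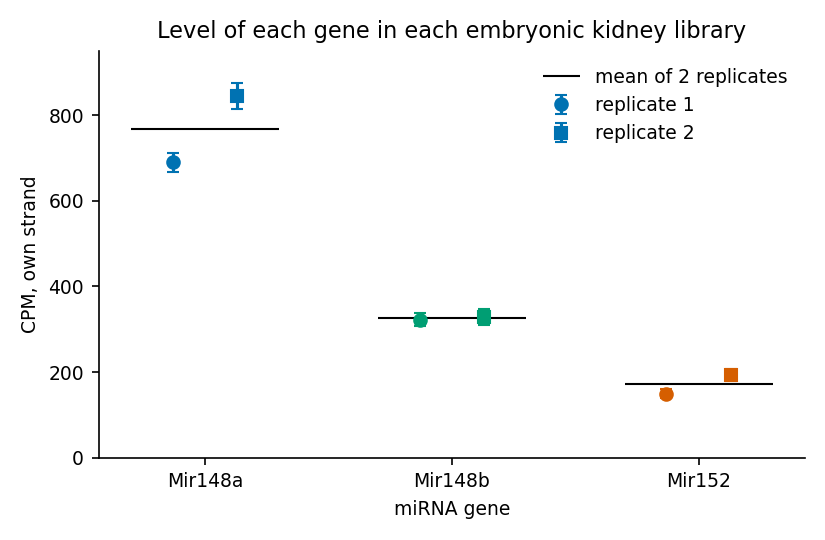
Level of each family gene in CPM on the strand of the gene (y axis, from 0) for replicate 1 (circles) and replicate 2 (squares) of embryonic kidney, with 95% exact intervals of counting error as bars and the mean as a line. Mir148a sits at 689 and 844 CPM, Mir148b at 322 and 329 and Mir152 at 149 and 194, with no overlap between genes.

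The genes within the family differed by more than their spread. In replicate 1 the counts of Mir148a were 2.14 times those of Mir148b (interval 2.02 to 2.27), and in replicate 2 they were 2.57 times (2.40 to 2.75). Over both libraries the difference in log2(CPM + 1) was 1.23 ± 0.19 (SD, n = 2). The excess of Mir148a over its closest relative was therefore larger in replicate 2, with intervals that did not overlap.

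Mir148b, the gene in Copz1, exceeded Mir152, the gene in Copz2. The ratio of their counts was 2.16 in replicate 1 (interval 1.98 to 2.35) and 1.70 in replicate 2 (1.55 to 1.87), a log2 difference of 0.93 ± 0.24. Mir148a exceeded Mir152 by the widest margin, 4.62 times in replicate 1 (4.27 to 5.00) and 4.36 times in replicate 2 (4.02 to 4.74), a log2 difference of 2.16 ± 0.06. These last intervals overlapped, but whether the ratio of the intergenic gene to the Copz2 gene differed between the libraries was not tested. In a two-sided exact binomial test of equal counts within each library, the largest of the 6 adjusted p-values (Benjamini-Hochberg over 3 pairs and 2 libraries) was 4.44e-30, for Mir148b against Mir152 in replicate 2. This test takes counting error into account and no spread between animals. Over 2 libraries a two-sided exact sign-flip test cannot give a p below 0.5.

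**Figure D3:**
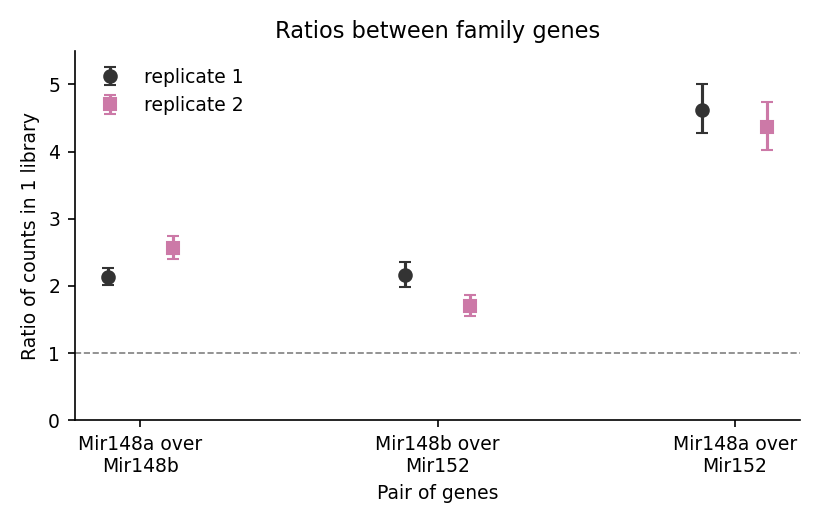
Ratio of the counts of 2 family genes within the same library (y axis, from 0), for the 3 pairs, with replicate 1 as circles and replicate 2 as squares and 95% exact conditional intervals as bars; the dashed line marks equal counts. All 6 ratios lie above 1, from 1.70 to 4.62, and of the 3 pairs Mir148a over Mir152 is the one whose intervals overlap between libraries.

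Together the 3 genes held 0.126% ± 0.0146 of own-strand counts (SD, n = 2). The share was 0.116% in replicate 1 (interval 0.113 to 0.119) and 0.137% in replicate 2 (0.133 to 0.140). The summed level was 1264 ± 146 CPM, and 75 single miRNA genes were more abundant than the sum. Mir148a made up 59.4% of the family's counts in replicate 1 (58.1 to 60.6) and 61.8% in replicate 2 (60.4 to 63.1). Mir148b made up 27.8% (26.6 to 28.9) and 24.1% (22.9 to 25.3), and Mir152 12.9% (12.0 to 13.7) and 14.2% (13.2 to 15.2). Of the 3 shares, that of Mir148b alone had intervals that did not overlap between libraries, and it was the lower in replicate 2. Overlap of intervals is not a test, and differences in share between libraries were not tested. The shares are parts of 1 whole, so a lower share of Mir148b need not be a lower level. Its level was 322 and 329 CPM, whereas Mir148a (689 and 844 CPM) and Mir152 (149 and 194 CPM) were higher in replicate 2. In bulk tissue, fewer cells that express a gene and less of its RNA per cell cannot be told apart.

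Genes near each member in level came from other seed families. By Euclidean distance of log2(CPM + 1) over the 2 libraries, the 3 detected genes nearest to Mir148a were Mir141 (719 ± 26.1 CPM), Mir375 (789 ± 6.95 CPM) and Mir542 (691 ± 68.3 CPM). Mir141 belongs to the epithelial miR-200 family, and Mir375 is best known from endocrine cells. Nearest to Mir148b were Mir1193 (322 ± 9.33 CPM), Mir125b-2 (344 ± 25.3 CPM) and Mir106a (304 ± 5.96 CPM). Mir125b-2 shares its main mature strand with Mir125b-1, so its count is uncertain. Nearest to Mir152 were Mir135b (171 ± 26.7 CPM), Mir300 (166 ± 28.4 CPM) and Mir323 (154 ± 25.8 CPM). With 2 libraries of 1 tissue, this likeness is one of level and not of a pattern across conditions.

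A family with a shifted copy of most of the seed was far more abundant. The seed of miR-130 and miR-301 holds AGUGCA at bases 2 to 7, the same 6 bases that the miR-148 and miR-152 strands hold at bases 3 to 8. They are printed with these 6 bases in capitals to show the shift by 1 position.
miR-148a-3p: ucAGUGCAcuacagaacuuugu
miR-130a-3p: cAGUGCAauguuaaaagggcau
miR-130b-3p: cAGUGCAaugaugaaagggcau
miR-301a-3p: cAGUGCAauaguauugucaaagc
The 4 counted genes Mir130a, Mir130b, Mir301 and Mir301b held 3.40% ± 0.236 of own-strand counts (SD, n = 2). Mir301b has no entry in the sequence table. Mir130a led with 23953 CPM in replicate 1 and 26413 CPM in replicate 2, followed by Mir130b with 7159 and 7879 CPM. Mir301 with 1149 and 1256 CPM lay above Mir148a in each library, and Mir301b with 92.6 and 145 CPM lay below Mir152. Summed counts of the 4 genes were 27.9 times those of the miR-148 and miR-152 family in replicate 1 (interval 27.2 to 28.6) and 26.1 times in replicate 2 (25.4 to 26.9), a log2 difference of 4.75 ± 0.07. Of the other mature miRNAs with AGUGCA at bases 2 to 7, Mir130c, Mir6341 and Mir6389 had 0 counts in both libraries, and Mir721 had no row of counts.

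**Figure D4:**
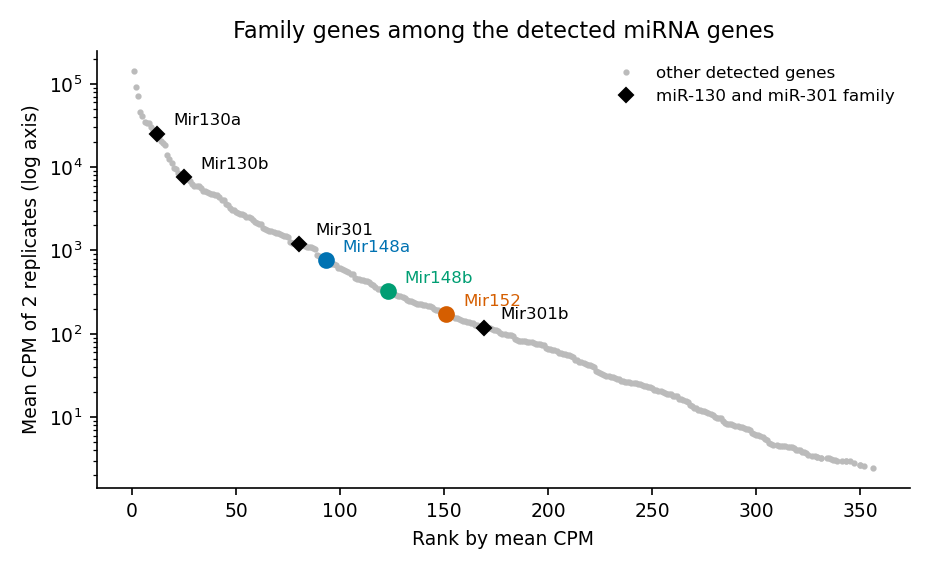
Mean CPM of the 345 detected miRNA genes (y axis, log scale) by rank among all counted genes (x axis), with the 3 family genes as coloured circles and the miR-130 and miR-301 genes as black diamonds. The family genes lie at ranks 93, 123 and 151, between Mir301 at rank 80 and Mir301b at rank 169.

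The miRNAs of the Hox cluster next to each member were higher than that member, with 1 exception. Mir196b, 960 kb from Mir148a, had 24590 CPM in replicate 1 and 31641 CPM in replicate 2. Near Mir148b, Mir615 had 6106 and 5727 CPM at 270 kb, and Mir196a-2 had 2406 and 2584 CPM at 312 kb. Near Mir152, Mir10a reached 145447 and 142567 CPM at 533 kb. The exception was Mir196a-1, 585 kb from Mir152, at 57.5 and 56.7 CPM. Mir196a-1 and Mir196a-2 encode the same mature strand, so reads that cannot be told apart between them are in neither count.

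Members of the miR-29 family, which are known to repress the de novo DNA methyltransferases Dnmt3a and Dnmt3b, had lower counts than any member. Of the 4 genes, 2 were detected. Mir29c had 63.6 CPM in replicate 1 and 71.4 in replicate 2, and Mir29a had 28.3 and 54.0 CPM. Mir29b-1 had 1 and 2 counts and Mir29b-2 had 10 and 2. These 2 genes encode the same mature strand, so their low counts are uncertain.

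Mir148a and Mir152 were higher in replicate 2, and Mir148b did not pass the test. Every detected gene was tested with a two-sided exact binomial test of replicate 2 against replicate 1, with totals scaled by TMM and Benjamini-Hochberg adjustment over all 345 genes. The log2 ratio of Mir148a was 0.30 (95% exact interval 0.23 to 0.37, adjusted p = 3.94e-16). For Mir152 it was 0.38 (0.23 to 0.53, adjusted p = 1.78e-06). For Mir148b it was 0.03 (-0.08 to 0.14, adjusted p = 0.680), an interval of 0.949 to 1.10 as a fold. Of the 3 members 2 passed, both higher in replicate 2, where 53.9% of all genes tested passed in either direction and 26.7% passed as higher. A change of at least 2-fold (log2 ratio of 1) was then required as well. By this rule the exact binomial test called 0 of the 3 members and 3.19% of all genes tested. Without adjustment, 2 of the 3 members and 197 of the 345 genes tested had a p below 0.05 in that test.

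The sizes of these ratios were common among the detected genes. A ratio at least as large as that of Mir148a, in either direction, was found in 39.7% of them, and one as large as that of Mir152 in 29.0%. The family's median log2 ratio was 0.30 beside 0.02 over all genes tested, and the median size of a ratio over all genes tested was 0.24. In the miR-130 and miR-301 family 4 of 4 genes passed as higher in replicate 2, with a median of 0.14. Among miR-29 genes, 1 of the 2 tested passed as higher. The Hox-cluster miRNAs were divided: of 6 genes 2 passed as higher and 3 as lower, with a median of -0.02. Over all 345 genes tested, 92 passed as higher and 94 as lower. Genes with many counts can pass at small ratios: Mir10a, with 756703 and 525215 counts, passed as lower at a log2 ratio of -0.025. The test compares 2 libraries and takes counting error alone into account. With an assumed coefficient of variation of 0.2, edgeR's exact test gave an adjusted p of 1 for each of the 3 members and called 2 of 345 genes, so the differences of Mir148a and Mir152 did not pass once a spread of that size between replicates was assumed.

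Some cell type markers also differed between the libraries, and others were nearly alike in both. Mir122, which marks hepatocytes, had 293 counts or 56.3 CPM in replicate 1 and 3957 counts or 1074 CPM in replicate 2, 19.1 times as high, in the library where Mir148a and Mir152 were higher. Its part in the ratios of Mir148a and Mir152 was not tested. Summed levels of the kidney tubule list (3 of 4 genes detected) were 353 and 490 CPM, and of the erythroid list (3 of 3) 161 and 77.6 CPM. Within the tubule list Mir192 (125 and 224 CPM) and Mir194-2 (71.1 and 129 CPM) were higher in replicate 2. Mir204 (157 and 136 CPM) was lower by the same exact binomial test (log2 ratio -0.20, adjusted p = 0.0268). From which cells these reads came was not measured, so the sum of the list is no measure of tubule cells. Mir194-2 shares its main mature strand with Mir194-1 (3 and 4 counts), so its count is uncertain. The lists for epithelium (5 of 5 detected, 26799 and 23488 CPM), endothelium (1 of 1, 45180 and 47759 CPM) and stroma and smooth muscle (6 of 7, 25029 and 25625 CPM) were high in both libraries. Mir199a-1 and Mir199a-2 of the last list share a mature strand, so reads common to both are in neither count. Neuronal genes summed to 1.35 and 1.90 CPM, with 3 of 5 at 0 and none detected, and of the skeletal muscle list 1 of 5 was detected, at 74.8 and 54.6 CPM for the list. The genes at 0 in these lists are copies of miR-124, miR-1 and miR-133a. Each of these miRNAs is encoded by more than 1 gene with the same mature strand. Reads that map to several copies are in no gene's count, so these zeros do not show that the miRNAs were absent. The neuronal genes above 0, Mir9-2 (1 and 0 counts) and Mir9-3 (6 and 7 counts), are copies of miR-9, so their low counts are uncertain too. The leukocyte list (3 of 4 detected) was at 640 and 591 CPM. Its gene at 0, Mir142b, had 1684 and 1151 counts on the opposite strand, where RefSeq places Mir142, and these are not in the sum. Endocrine Mir375 was at 784 and 794 CPM.

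**Figure D5:**
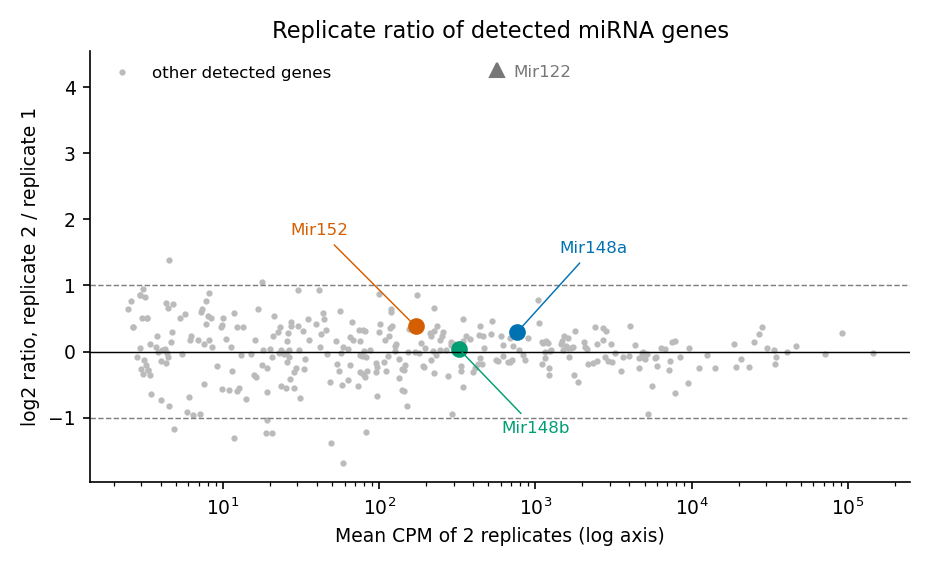
The log2 ratio of replicate 2 over replicate 1 (y axis, TMM-scaled) against mean CPM (x axis, log scale) for the 345 detected genes, with the family genes as coloured circles, Mir122 as a triangle and dashed lines at a log2 ratio of 1 in either direction. The family genes lie at 0.30, 0.03 and 0.38, inside the dashed lines, and Mir122 lies far above them.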

How the data were processed

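For every library the authors deposited a table of raw counts of reads on miRNA genes, in columns for both strands, the strand of the gene and the opposite strand. Per the deposited file descriptions, reads were aligned to mm10 and counted on GENCODE M4. Which aligner and which counter they used is not given in the sources used here. Its 4 leading rows (unmapped, multimapping, outside features, ambiguous) name no gene and entered neither totals nor tests. Multimapping reads, which are in no gene's count, were 28.3% of the 10450326 reads tallied in replicate 1 and 27.5% of 6765908 in replicate 2. Unmapped reads were 16.8% and 14.1%. The totals behind these percentages hold unstranded gene counts and the unmapped, multimapping and outside-feature rows, and leave out the ambiguous row.

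Own-strand counts were used, CPM were computed from them, and 1 CPM was added before logs were taken. GENCODE M21 (same assembly) gave symbols for 1894 of 1973 identifiers, and positions; sequences are from RefSeq (GRCm38.p6), in which all 3 members matched by symbol. Shared stretches were exact matches on either strand of the M21 hairpins. Folding energies were predicted with RNAfold 2.7.2. TMM factors were 1.00 in both libraries. With 1 group, edgeR's quasi-likelihood test had nothing to test. Calculations were tested on simulated counts.

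Members, lists and tests were chosen with earlier results of these data known. Named genes were the members, the 3 genes nearest to each in level, and the genes of the lists. Alternatives were other denominators, pseudocounts and count minimums, DESeq2 size factors, unstranded counts, edgeR's exact test and each replicate alone. Software was Python 3.11.15 with scipy 1.17.1 and pandas 2.3.3, and R 4.3.3 with DESeq2 1.42.0 and edgeR 4.0.16.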

Additional observations from a re-analysis of the deposited data

How the results depend on the processing

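Of 71 recalculated values, 60 kept their direction and their side of the threshold or moved by less than 1 SD, 8 moved further and 3 became weaker. These 3 were the replicate ratios of Mir148a and Mir152, which lost significance, and the count of members that passed, which repeats that loss. The 8 levels and shares from 1 library are not among the 71, since with 2 libraries each lies within 1 SD of the mean by construction. Some of the 60 could hardly change either. Members had 0 opposite-strand counts, so unstranded counts left the counts of each member as they were. A count minimum alters the adjustment of p-values and not a member's log2 ratio. The p-values for differences between members do not use the pseudocount. Without the most abundant gene in the total, the mean level of Mir148a was 896 CPM, that of Mir148b 380 CPM and the family's share 0.148%. Another denominator added the unmapped, multimapping and outside-feature tallies, without the ambiguous row. Per 1000000 of these reads the levels were 401, 170 and 89.8 for Mir148a, Mir148b and Mir152, and the share was 0.0661%. With unstranded counts Mir148b was at 319 CPM. In edgeR's exact test with an assumed coefficient of variation of 0.2, the log2 ratios of Mir148a and Mir152 stayed at 0.30 and 0.38 with adjusted p-values of 1, and 0 members passed in place of 2; 2 of 345 genes passed in place of 186. Under the other 6 settings adjusted p-values of Mir148a lay between 2.55e-16 and 4.99e-14 and those of Mir152 between 1.40e-06 and 6.72e-06. The number of genes called at a log2 ratio of at least 1 was 11, and it was 5 with a minimum of 50 counts and 16 with no filter. From 1 library at a time, the log2 difference ranged from 1.09 to 1.36 for Mir148a over Mir148b, from 2.12 to 2.20 for Mir148a over Mir152 and from 0.76 to 1.11 for Mir148b over Mir152. No paired analysis was possible because there is 1 group. The totals put 3 counts at 0.577 and 0.814 CPM, and no member came near that limit. Counts per gene do not separate the 2 arms of a hairpin, and 2 libraries give no estimate of the spread between animals.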
